A study of Mus musculus with 28 samples.

Results

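The protein kinases that the cancer drug dasatinib is best known to inhibit were followed as mRNAs through the hippocampus of female mice treated with dasatinib and quercetin or with navitoclax. They were chosen by name as 10 genes. Src, Fyn, Lyn and Yes1 belong to the SRC family, Abl1 and Abl2 to the ABL family, and Kit, Pdgfra, Pdgfrb and Epha2 are receptors. All 10 of 10 were among the 24062 genes of the count table, and all 10 were among the 16369 genes with enough counts to be tested. The groups of 4 libraries each were 3xTg with dasatinib plus quercetin (DQ), 3xTg with the vehicle labelled VehD, 3xTg with navitoclax (ABT263, NAVI), 3xTg with the vehicle labelled VehN, WT with DQ, WT with NAVI and WT with vehicle (Veh). The 3xTg-AD line models Alzheimer's disease by human APP and tau transgenes, expressed mainly in neurons from a Thy1 cassette, together with a mutant presenilin 1 knock-in. The WT mice are labelled BL6129, with BL6/129 given as their strain. VehD and VehN were paired with DQ and NAVI by the last letter of their labels, and the WT vehicle served both drugs. For age, dose and schedule, the sources used here give nothing. The labels do not say that each library is a separate animal, so p-values cover the spread among these libraries alone.

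SRC family kinases are membrane-bound tyrosine kinases that relay signals from receptors and adhesion sites; in neurons Fyn and Src phosphorylate NMDA receptor subunits, and in myeloid cells Lyn acts next to immune receptors. ABL kinases couple such signals to the actin cytoskeleton. Kit, the PDGF receptors and Epha2 are receptor tyrosine kinases that bind stem cell factor, PDGFs and ephrin-A ligands. Dasatinib binds the kinase domain of these proteins and blocks their activity; mRNA levels, which are what was measured, do not report on kinase activity. In bulk tissue, fewer cells of a type and less RNA per cell cannot be told apart.

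Library totals ran from 32080861 to 54019519 counts. Levels are given as CPM, counts scaled to the library total and TMM factors, and a difference was called at an adjusted p under 0.05. Hippocampal neuron markers were present in every library: Prox1 of dentate granule cells was at 36.2 to 74.03 CPM in 3xTg and 40.6 to 75.1 CPM in WT, and Neurod6 of pyramidal cells was at 195 to 294 CPM in 3xTg and 185 to 327 CPM in WT. Markers of neighbouring tissue differed between libraries: the summed level of 10 choroid plexus markers ran from 78.2 to 5943 CPM and that of 10 thalamus markers from 179 to 985 CPM.

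The members covered a wide range of levels. Per kilobase of exon, the mean over the 28 libraries was 33.7 ± 1.43 CPM for Fyn and 23.6 ± 3.62 CPM for Src (SD). Abl2 followed at 14.1 ± 0.730, Kit at 12.02 ± 2.50 and Pdgfra at 9.95 ± 0.671 CPM per kilobase. Abl1 (4.08 ± 0.517), Pdgfrb (3.53 ± 0.626), Lyn (3.22 ± 0.517) and Yes1 (2.46 ± 0.304 CPM per kilobase) formed a lower group, and Epha2 was lowest at 0.183 ± 0.0620 CPM per kilobase, with 22 to 86 counts per library. The ranges over libraries overlapped between Fyn and Src, between Abl2 and Kit, between Kit and Pdgfra and among Abl1, Pdgfrb, Lyn and Yes1. Those neighbours in the order are thus not separated by their ranges. Within each library Fyn was above Src, and the other neighbours were not compared library by library. Abl2 and Fyn were the steadiest, with a highest library at 1.23 times and 1.26 times the lowest. Kit varied 2.50-fold and Epha2 3.73-fold.

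**Figure D1:**
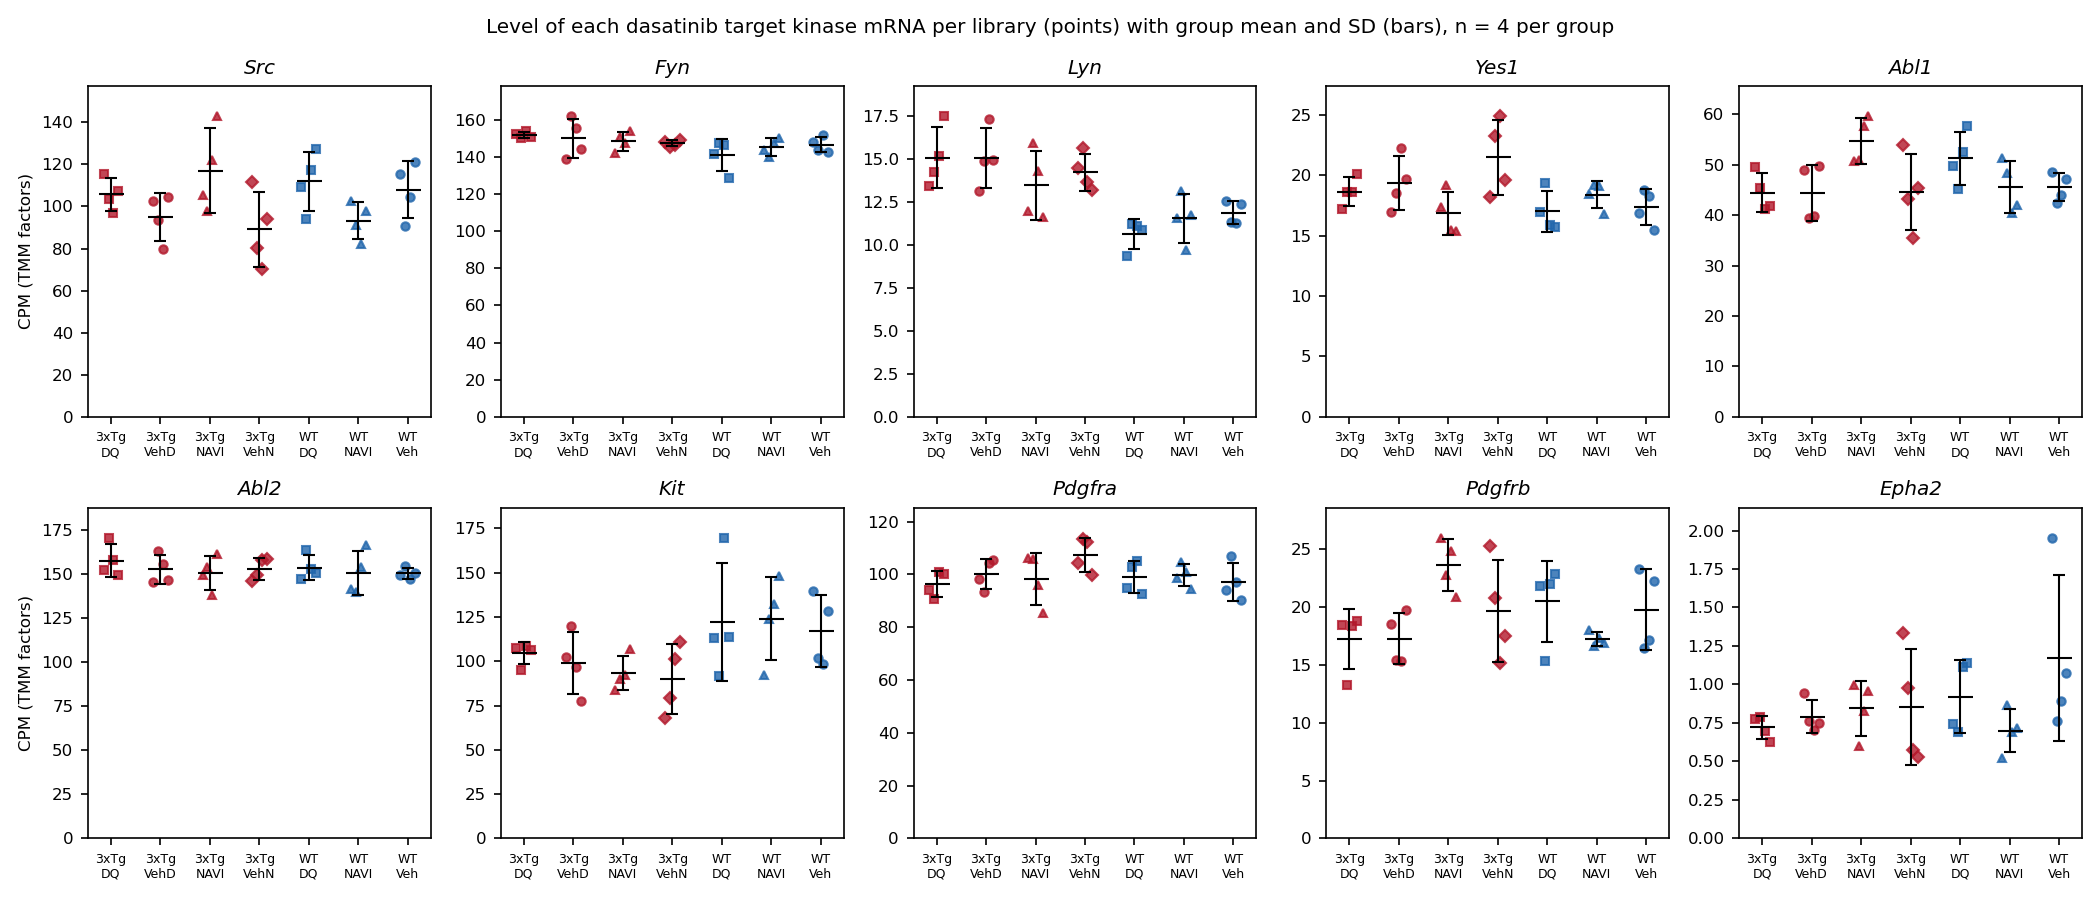
Level of each member in CPM (vertical axis, from 0) in the 28 libraries, by group (horizontal axis, 3xTg red and WT blue), with the group mean and SD as bars (n = 4). Lyn sits higher in the 3xTg groups and mean Kit higher in the WT groups, while Fyn and Abl2 stay near one level throughout.

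Lyn was the member with the clearest genotype difference and was higher in 3xTg. Lyn is the SRC family kinase of B cells and myeloid cells, and in brain it is found mostly in microglia. With DQ it had 13.4, 14.2, 15.2 and 17.5 CPM in 3xTg, against 9.36, 11.2, 11.1 and 10.9 CPM in WT. Every 3xTg library with DQ was above every WT library with DQ. With NAVI it had 11.9, 15.9, 14.3 and 11.6 CPM in 3xTg, against 11.6, 13.1, 9.71 and 11.7 CPM in WT, and these groups overlapped. Vehicle libraries had 13.1, 14.9, 17.3 and 14.9 CPM in 3xTg VehD and 14.4, 15.6, 13.6 and 13.2 CPM in 3xTg VehN, against 12.5, 11.3, 11.3 and 12.4 CPM in WT, and both 3xTg vehicle groups lay above WT without overlap. Over all treatments Lyn averaged 14.4 ± 1.65 CPM in 3xTg (n = 16) and 11.3 ± 1.07 CPM in WT (n = 12); 13 of 16 3xTg libraries exceeded the highest WT library and 16 of 16 exceeded the WT median.

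On the log2 scale Lyn differed over all treatments by 0.34 (SE 0.0610, edgeR adjusted p = 2.86e-04), a 1.27-fold higher level, with a 95% interval of 0.22 to 0.47. Within treatments it was 0.50 (SE 0.110, edgeR adjusted p = 0.0107) with DQ, 0.30 (SE 0.0962, edgeR adjusted p = 0.0397) with vehicle and 0.22 (SE 0.110, edgeR adjusted p = 0.190) with NAVI. Whether the difference varied with the drug was tested directly: the effect in 3xTg minus that in WT was 0.16 (SE 0.156, edgeR adjusted p = 0.9999) for DQ and, for NAVI, -0.04 (SE 0.155, edgeR adjusted p = 0.891). Leaving out any single library kept the call over all treatments, at 0.31 to 0.37 and adjusted p from 1.56e-04 to 8.72e-04. The call with DQ was lost without 3xTg DQ replicate 4, at 0.43 (adjusted p = 0.0594). The call with vehicle was lost in 8 of 12 fits that each left out 1 vehicle library, at values of 0.26 to 0.33 (adjusted p from 0.0542 to 0.0971), namely without 3xTg VehN replicate 2 or 3, 3xTg VehD replicate 2 or 3, or any of the 4 WT vehicle replicates. It was also lost with only 1 of the 3xTg vehicles, at 0.34 (adjusted p = 0.0793) for VehD and 0.26 (adjusted p = 0.113) for VehN, with only the libraries of the comparison, at 0.30 (adjusted p = 0.0581), and, as alternatives chosen after seeing the data, with a fitted trend on transcript GC content removed from each library, at 0.21 (adjusted p = 0.157), or with interneuron markers as a covariate, at 0.33 (adjusted p = 0.0735).

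Microglia markers were also higher in 3xTg. Their median log2 genotype difference was 0.18 with vehicle, 0.26 with DQ and 0.36 with NAVI. Lyn was at 0.30, 0.50 and 0.22 in the same comparisons, and neither drug effect on Lyn was called as differing between genotypes. For NAVI against VehN in 3xTg 8 of 10 microglia markers had positive differences (median 0.21, 0 called). Lyn was at -0.08 (SE 0.110, edgeR adjusted p = 0.648) there. Whether Lyn and these markers differed in their pattern over treatments was not tested. The summed level of 10 microglia markers was 534 to 776 CPM in 3xTg libraries and 419 to 534 CPM in WT libraries. Over all treatments 6 of the 10 rose in 3xTg and all 10 had positive differences; the complement gene C1qa differed by 0.63 (SE 0.107, adjusted p = 1.67e-04) and Csf1r, the receptor that microglia need to survive, by 0.29 (SE 0.0594, adjusted p = 0.00148). P2ry12 and Tmem119, markers of resident microglia, had differences of 0.13 (SE 0.0707, adjusted p = 0.255) and 0.09 (SE 0.103, adjusted p = 0.637). The mean microglia marker level of each library was also used as a covariate, an alternative chosen after seeing the data. The Lyn difference was then 0.29 (edgeR adjusted p = 0.138) with DQ, 0.16 (adjusted p = 0.241) with vehicle and, over all treatments, 0.13 (adjusted p = 0.364). These markers were themselves higher in 3xTg, so this fit cannot tell their part from that of genotype. With it the number of all genes called over all treatments went from 2362 to 1453.

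**Figure D2:**
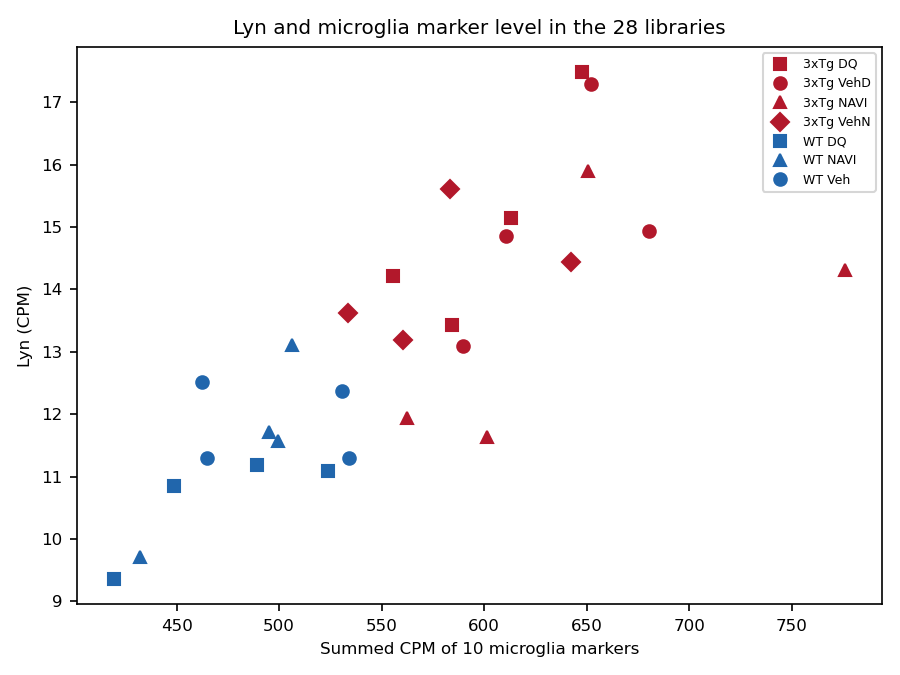
Lyn level in CPM (vertical axis) against the summed CPM of 10 microglia markers (horizontal axis) in each of the 28 libraries, with 3xTg in red and WT in blue and symbols by treatment. Both axes start above 0. The 3xTg libraries lie to the upper right, at 534 to 776 marker CPM, and the WT libraries to the lower left, at 419 to 534.

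Kit was the only member called lower in 3xTg than in WT, and the call was made only over all treatments. Kit is the receptor for stem cell factor; mast cells and blood progenitors depend on it, and some neurons express it. With DQ it had 107, 95.2, 109 and 106 CPM in 3xTg, against 113, 91.9, 169.8 and 114 CPM in WT. With NAVI it had 83.9, 89.95, 92.1 and 107 CPM in 3xTg, against 92.1, 124, 132 and 148 CPM in WT. Both pairs of groups overlapped, with the highest values in WT. Vehicle libraries had 102, 120.0, 97.03 and 77.5 CPM in 3xTg VehD and 67.95, 79.1, 101 and 111 CPM in 3xTg VehN, against 139.8, 102, 98.5 and 128 CPM in WT, again with overlap. Over all treatments Kit averaged 96.6 ± 14.1 CPM in 3xTg (n = 16) and 121 ± 23.98 CPM in WT (n = 12); 6 of 12 WT libraries exceeded the highest 3xTg library and 5 of 16 3xTg libraries fell below the lowest WT library.

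On the log2 scale Kit differed by -0.32 (SE 0.0955, edgeR adjusted p = 0.0253) over all treatments, a level 0.803 times that of WT, with a 95% interval of -0.51 to -0.12. It was -0.23 with DQ, -0.31 with vehicle and -0.41 with NAVI, with edgeR adjusted p of 0.497, 0.147 and 0.132. The call over all treatments was lost without WT DQ replicate 3, the highest library, at -0.25 (adjusted p = 0.0649), and without WT Veh replicate 1, at -0.28 (adjusted p = 0.0536). With the microglia covariate it was -0.29 (adjusted p = 0.256), under the limit given for Lyn. Some mast cell, interneuron and endothelial markers were also lower in 3xTg over all treatments. The median log2 difference there was -2.52 for mast cell, -0.22 for endothelial and -0.09 for interneuron markers. For VehD against VehN in 3xTg Kit was at 0.14 (edgeR adjusted p = 0.9999). The medians in that comparison were -2.36 for mast cell, -0.43 for endothelial and 0.04 for interneuron markers, with 0 markers called. Whether Kit and these lists varied together over the comparisons was not tested. Of 4 mast cell markers that could be tested, 3 fell in 3xTg: the protease genes Cpa3, at a log2 difference of -2.35 (SE 0.637, adjusted p = 0.0127), Cma1, at -2.69 (SE 0.679, adjusted p = 0.00753), and Mcpt4, at -2.98 (SE 0.695, adjusted p = 0.00412). The other 4 on the list, Tpsb2, Tpsab1, Fcer1a and Ms4a2, had too few counts to be tested. The levels of the 3 proteases were small next to Kit; Cpa3 was at 0 to 0.746 CPM in 3xTg and 0.0436 to 1.12 CPM in WT, with no count in 6 of 16 3xTg libraries. The summed level of the 4 tested markers, mostly the histidine decarboxylase gene Hdc, which differed by 0.19 (SE 0.160, adjusted p = 0.493), was 2.77 to 5.94 CPM in 3xTg and 1.75 to 5.90 CPM in WT.

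Of 9 inhibitory interneuron markers, 4 fell in 3xTg: Gad1, the main GABA-producing enzyme, differed by -0.17 (SE 0.0434, adjusted p = 0.00978), parvalbumin (Pvalb) by -0.38 (SE 0.0841, adjusted p = 0.00252), somatostatin (Sst) by -0.21 (SE 0.0703, adjusted p = 0.0472) and Lamp5 by -0.42 (SE 0.0942, adjusted p = 0.00266). The summed level of the 9 was 950.2 to 1232 CPM in 3xTg and 1092 to 1469 CPM in WT. The interneuron marker level was also used as a covariate, again chosen after seeing the data. The Kit difference was then -0.33 (edgeR adjusted p = 0.183), no longer called. With it the number of all genes called over all treatments went from 2362 to 932. Interneuron markers were themselves mostly lower in 3xTg, so this fit cannot tell their part from that of genotype. Of 9 endothelial markers, 3 fell in 3xTg and 0 had positive differences: Ly6c1 differed by -0.42 (SE 0.0986, adjusted p = 0.00395), Cldn5, a tight junction protein, by -0.40 (SE 0.120, adjusted p = 0.0254) and Itm2a by -0.20 (SE 0.0682, adjusted p = 0.0482). The summed level of the 9 was 220.2 to 419 CPM in 3xTg and 292 to 435 CPM in WT, and the part of these markers in the Kit difference was not tested.

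Lyn and Kit were thus 2 of 10 members called over all treatments, where 14.4% of all tested genes were called. With vehicle 1 of 10 members was called, against 13.1% of all genes; with DQ 1 of 10, against 3.05%; and with NAVI 0 of 10, against 5.98%. Before adjustment 4 members were under 0.05 in edgeR with vehicle (Lyn, Yes1, Kit and Epha2), among 5293 such genes of 16369. With NAVI they were 4 (Src, Abl1, Kit and Pdgfrb), among 4477. With DQ they were Fyn and Lyn, among 2843. DESeq2 called 1 member with NAVI, Pdgfrb, among 1641 genes. The median log2 difference of the members over all treatments was 0.02, and that of all 16369 tested genes was -0.00135. For the other SRC and ABL kinases the 95% interval over all treatments was -0.00112 to 0.11 for Fyn, -0.05 to 0.09 for Abl2, -0.12 to 0.13 for Abl1, -0.14 to 0.15 for Src and -0.04 to 0.20 for Yes1. Fyn, which like Src phosphorylates the NMDA receptor and also acts on tau, averaged 149 ± 5.61 CPM in 3xTg (n = 16) and 144 ± 6.03 CPM in WT (n = 12). Among the receptors the interval was -0.06 to 0.09 for Pdgfra, which marks oligodendrocyte precursors, and -0.14 to 0.20 for Pdgfrb, which marks pericytes. Epha2 was too thinly counted for a narrow estimate, at -0.53 to 0.13.

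Src ran from 70.2 to 143 CPM (median 103) in 3xTg and 82.1 to 127 CPM (median 104) in WT, and Yes1 from 15.4 to 24.9 CPM (median 18.6) in 3xTg and 15.5 to 19.4 CPM (median 17.6) in WT. Abl1, which with Abl2 remodels actin in dendritic spines and axons, ran from 35.5 to 59.7 CPM (median 47.2) in 3xTg and 40.5 to 57.7 CPM (median 47.7) in WT, and Abl2 from 138 to 171 CPM (median 153) in 3xTg and 139.6 to 167 CPM (median 151) in WT. The 3xTg and WT ranges overlapped in each of these 4 genes, and for Yes1 6 of 16 3xTg libraries lay above the highest WT library. Pdgfra ran from 85.4 to 114 CPM (median 100.5) in 3xTg and 90.4 to 107 CPM (median 97.9) in WT, beside a summed level of 10 oligodendrocyte precursor markers of 181 to 251 CPM in 3xTg and 177 to 233 CPM in WT. Pdgfrb ran from 13.3 to 26.02 CPM (median 18.7) in 3xTg and 15.3 to 23.3 CPM (median 17.7) in WT, beside a summed level of 10 mural cell markers of 91.7 to 223 CPM in 3xTg and 104 to 195 CPM in WT. Epha2, a receptor of epithelia and vessels, ran from 0.529 to 1.33 CPM (median 0.769) in 3xTg and 0.524 to 1.95 CPM (median 0.816) in WT, with the highest value in a WT vehicle library.

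**Figure D3:**
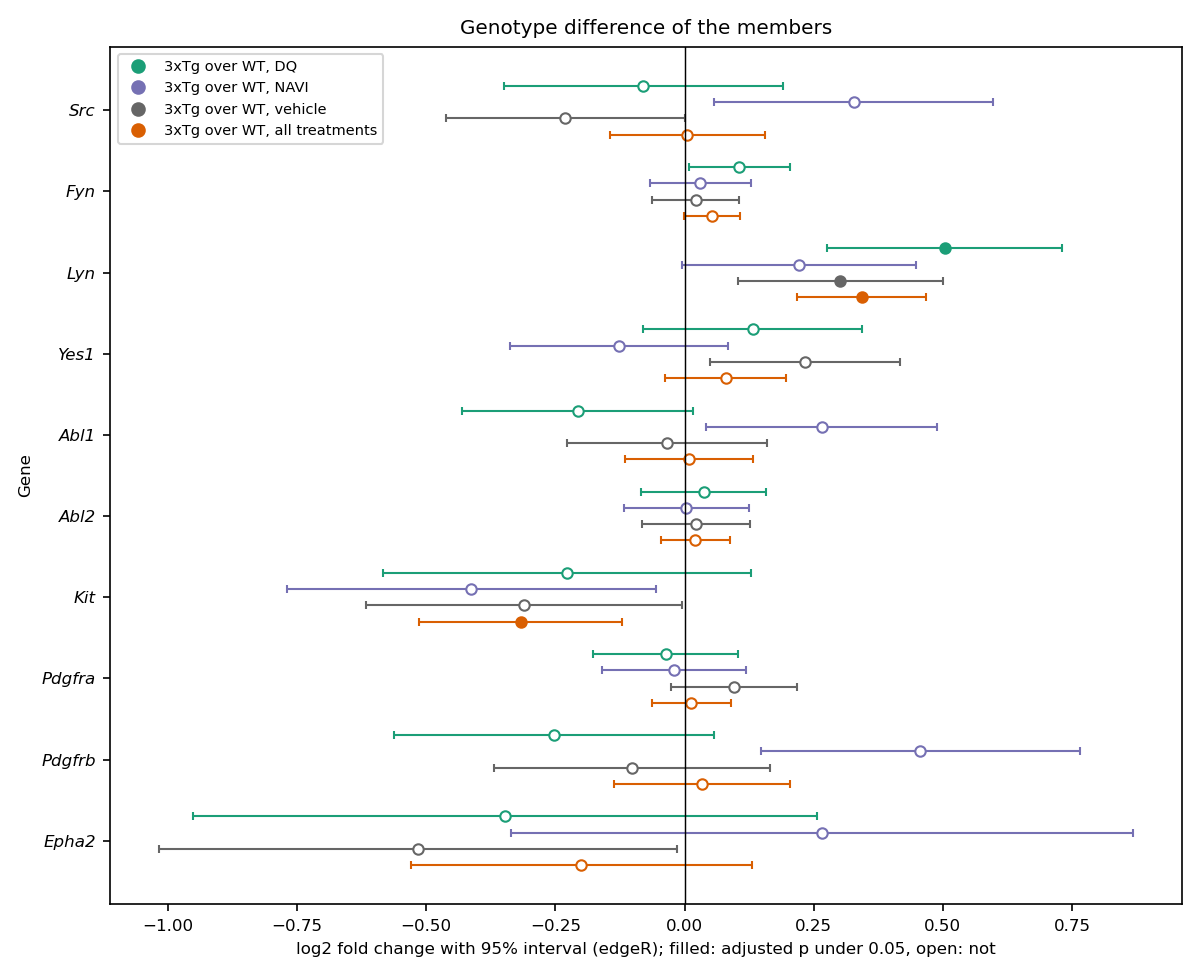
Log2 fold change of 3xTg over WT (horizontal axis) for each member (rows) with DQ, with NAVI, with vehicle and over all treatments, with 95% intervals from edgeR; filled points are called. Lyn is filled with DQ, with vehicle and over all treatments, Kit over all treatments, and the other 8 members are open throughout.

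The comparison of DQ with vehicle asked whether the drug that inhibits these kinases changed their mRNAs. No member was called in either genotype. In 3xTg Src had 116, 103, 97.01 and 108 CPM with DQ, against 103, 93.6, 79.6 and 105 CPM with VehD, and Lyn had 15.1 ± 1.76 CPM with DQ and 15.04 ± 1.72 CPM with VehD (SD, n = 4 each). Both pairs of groups overlapped. The log2 differences of the 10 members ran from -0.13 for Epha2 to 0.15 for Src in 3xTg and from -0.35 for Epha2 to 0.17 for Abl1 in WT, at an edgeR adjusted p of 0.9999 for all 10 in 3xTg and 0.9997 for all 10 in WT. EdgeR called 0 of 10 members in 3xTg, against 0% of all genes, and 0 of 10 in WT, against 0.00611%, which is 1 gene. Unadjusted p fell under 0.05 for 299 genes in 3xTg and 554 in WT, among them 0 members in either; DESeq2 called 0 genes in 3xTg and 4 in WT.

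The width of the intervals sets what a DQ effect could have been. The narrowest belonged to abundant, steady members: in 3xTg the 95% interval was -0.08 to 0.11 for Fyn, -0.07 to 0.17 for Abl2 and -0.20 to 0.08 for Pdgfra. It was -0.22 to 0.23 for Lyn, -0.27 to 0.15 for Yes1, -0.22 to 0.22 for Abl1 and -0.12 to 0.42 for Src. The intervals of Pdgfrb (-0.31 to 0.31), Kit (-0.28 to 0.43) and Epha2 (-0.73 to 0.48) were wider. The difference between the DQ effects in 3xTg and WT was called by edgeR for 0 of 10 members and for 0% of all genes; 467 genes and 0 members reached p under 0.05 before adjustment. DESeq2 called 1 gene.

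**Figure D4:**
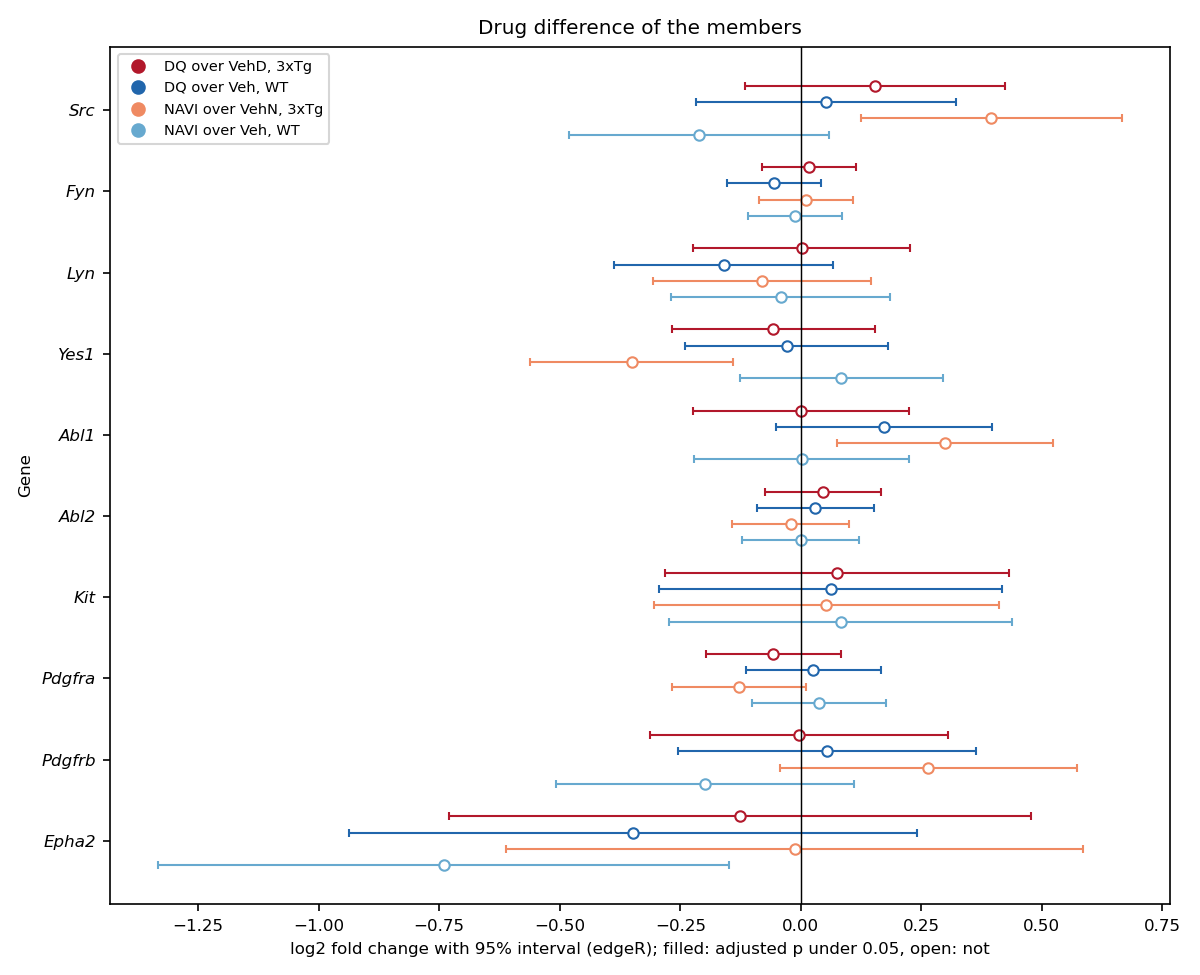
Log2 fold change of drug over vehicle (horizontal axis) for each member (rows), for DQ and NAVI in 3xTg and in WT, with 95% intervals from edgeR. No point is filled, since none was called, and the DQ intervals all include 0.

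The NAVI effect differed between genotypes for 1 member, Src. Src is the founding member of its family and is abundant in neurons. In 3xTg it had 105, 97.7, 122 and 143 CPM with NAVI, against 112, 80.3, 70.2 and 94.1 CPM with VehN. In WT it had 102, 91.01, 82.1 and 97.7 CPM with NAVI, against 116, 90.7, 105 and 121 CPM with vehicle. The groups overlapped in both genotypes, and the means differed in opposite directions. The log2 change was 0.39 (SE 0.131, edgeR adjusted p = 0.0730) in 3xTg and -0.21 (SE 0.131, edgeR adjusted p = 0.615) in WT, and the NAVI effect in 3xTg minus that in WT was 0.61 (SE 0.185, edgeR adjusted p = 0.0466). This call was 1 of 10 members, against 8.13% of all genes. It was lost in 11 of 16 fits that left out 1 library, where the value ran from 0.51 to 0.64 (adjusted p from 0.0516 to 0.133), and held without 3xTg NAVI replicate 1 or 2, 3xTg VehN replicate 1, WT NAVI replicate 1 or WT Veh replicate 2. It was also lost with no low count filter, at 0.61 (adjusted p = 0.0564), and with only the libraries of the comparison, at 0.61 (adjusted p = 0.101); 0 genes were called in this comparison in either fit.

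Yes1, Abl1 and Pdgfrb had NAVI values of similar size without passing the edgeR threshold. Yes1, a widely expressed SRC family kinase, had 17.4, 19.2, 15.5 and 15.4 CPM with NAVI in 3xTg, against 18.2, 23.3, 24.9 and 19.6 CPM with VehN, differing on the log2 scale by -0.35 (SE 0.102, edgeR adjusted p = 0.0605). Abl1 had 50.8, 51.00, 57.7 and 59.7 CPM with NAVI, against 53.98, 43.3, 35.5 and 45.5 CPM with VehN, differing on the log2 scale by 0.30 (SE 0.109, edgeR adjusted p = 0.0882). The groups overlapped for both genes. For Yes1 the NAVI effect in 3xTg minus that in WT was -0.43 (SE 0.145, edgeR adjusted p = 0.0563), called by DESeq2 (adjusted p = 0.0279). Pdgfrb, which binds PDGF-B on pericytes, had 26.02, 22.8, 24.9 and 20.9 CPM with NAVI, against 25.3, 20.8, 15.1 and 17.5 CPM with VehN, differing on the log2 scale by 0.26 (SE 0.150, edgeR adjusted p = 0.236). These groups overlapped as well, but with NAVI every 3xTg library exceeded every WT library, which had 18.05, 16.6, 17.3 and 16.9 CPM. The genotype difference of Pdgfrb with NAVI was 0.46 (SE 0.150, edgeR adjusted p = 0.0648), called by DESeq2 (adjusted p = 0.0343), and 0.33 (adjusted p = 0.0877) in edgeR after removal of the GC trend. Its NAVI effect in 3xTg minus that in WT was 0.46 (SE 0.212, edgeR adjusted p = 0.131). EdgeR called 0 of 10 members and 0% of all genes for NAVI in 3xTg, although 4759 genes, 3 of them members, reached p under 0.05 before adjustment. DESeq2 called 2000 genes, among them Src, Yes1 and Abl1. In WT edgeR likewise called 0 of 10 members and 0% of genes, with 1267 genes and 1 member, Epha2, under 0.05 before adjustment; by DESeq2 the calls numbered 3. Epha2 had 0.524, 0.867, 0.692 and 0.714 CPM with NAVI in WT, against 1.95, 0.765, 0.895 and 1.07 CPM with vehicle; WT Veh replicate 1 was the highest of all 28 libraries. Epha2 differed by -0.74 (SE 0.287, edgeR adjusted p = 0.614), and by -0.38 (adjusted p = 0.794) without that library.

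The levels of these members followed a property of the whole library. In each library the deviation of all genes from their mean was regressed on transcript GC content, the same trend fitted as a line, which gives a GC slope in log2 CPM per 10 percentage points. The mean slope was 0.140 in 3xTg NAVI and -0.124 in 3xTg VehN, against -0.0620 in WT NAVI and 0.0914 in WT Veh. Over the 28 libraries log2 CPM correlated with the slope at r = 0.94 (Spearman rho = 0.91) for Src, r = 0.87 (Spearman rho = 0.85) for Abl1 and r = 0.72 (Spearman rho = 0.75) for Pdgfrb. Yes1 went the other way at r = -0.89 (Spearman rho = -0.85). Permutation p was 1.00e-05 for each of these r values, the smallest that the 100000 permutations can give. After adjustment over the 10 relations computed it was 2.50e-05. The slope is fitted over all genes by GC content, so genes of high or low GC tend to follow it by construction. These p-values test only against no relation at all, and other genes of like GC were not compared. Without the 2 libraries farthest from the median slope r was 0.92 for Src, 0.81 for Abl1, 0.72 for Pdgfrb and -0.85 for Yes1, and within groups it was 0.95, 0.90, 0.69 and -0.87. Epha2 rose with the slope (r = 0.60, permutation p = 7.90e-04) and Pdgfra fell with it (r = -0.57, permutation p = 0.00169). Abl2 (r = -0.38, permutation p = 0.0474), Fyn (r = -0.37, permutation p = 0.0543), Lyn (r = -0.35, permutation p = 0.0733) and Kit (r = 0.14, permutation p = 0.492) had weaker relations. Permutation p of rho was 2.00e-05 for Pdgfrb, 0.0637 for Lyn, 0.550 for Kit and 1.00e-05 for each of Src, Abl1 and Yes1.

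After the same removal of the GC trend, an alternative chosen after seeing the data, the NAVI effect on Src in 3xTg minus WT was 0.10 (adjusted p = 0.451). For NAVI against VehN in 3xTg the values were then 0.06 (adjusted p = 0.494) for Src, -0.16 (adjusted p = 0.213) for Yes1, 0.08 (adjusted p = 0.497) for Abl1 and 0.11 (adjusted p = 0.694) for Pdgfrb. The genotype differences over all treatments were then 0.32 (adjusted p = 4.64e-04) for Lyn and -0.33 (adjusted p = 0.0179) for Kit, both still called. Mural cell markers, a list that includes no member, had a summed level of 124 to 204 CPM in 3xTg NAVI and 164 to 223 CPM in 3xTg VehN, against 104 to 143 CPM in WT NAVI and 112 to 162 CPM in WT Veh; their part in the Pdgfrb values was not tested.

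**Figure D5:**
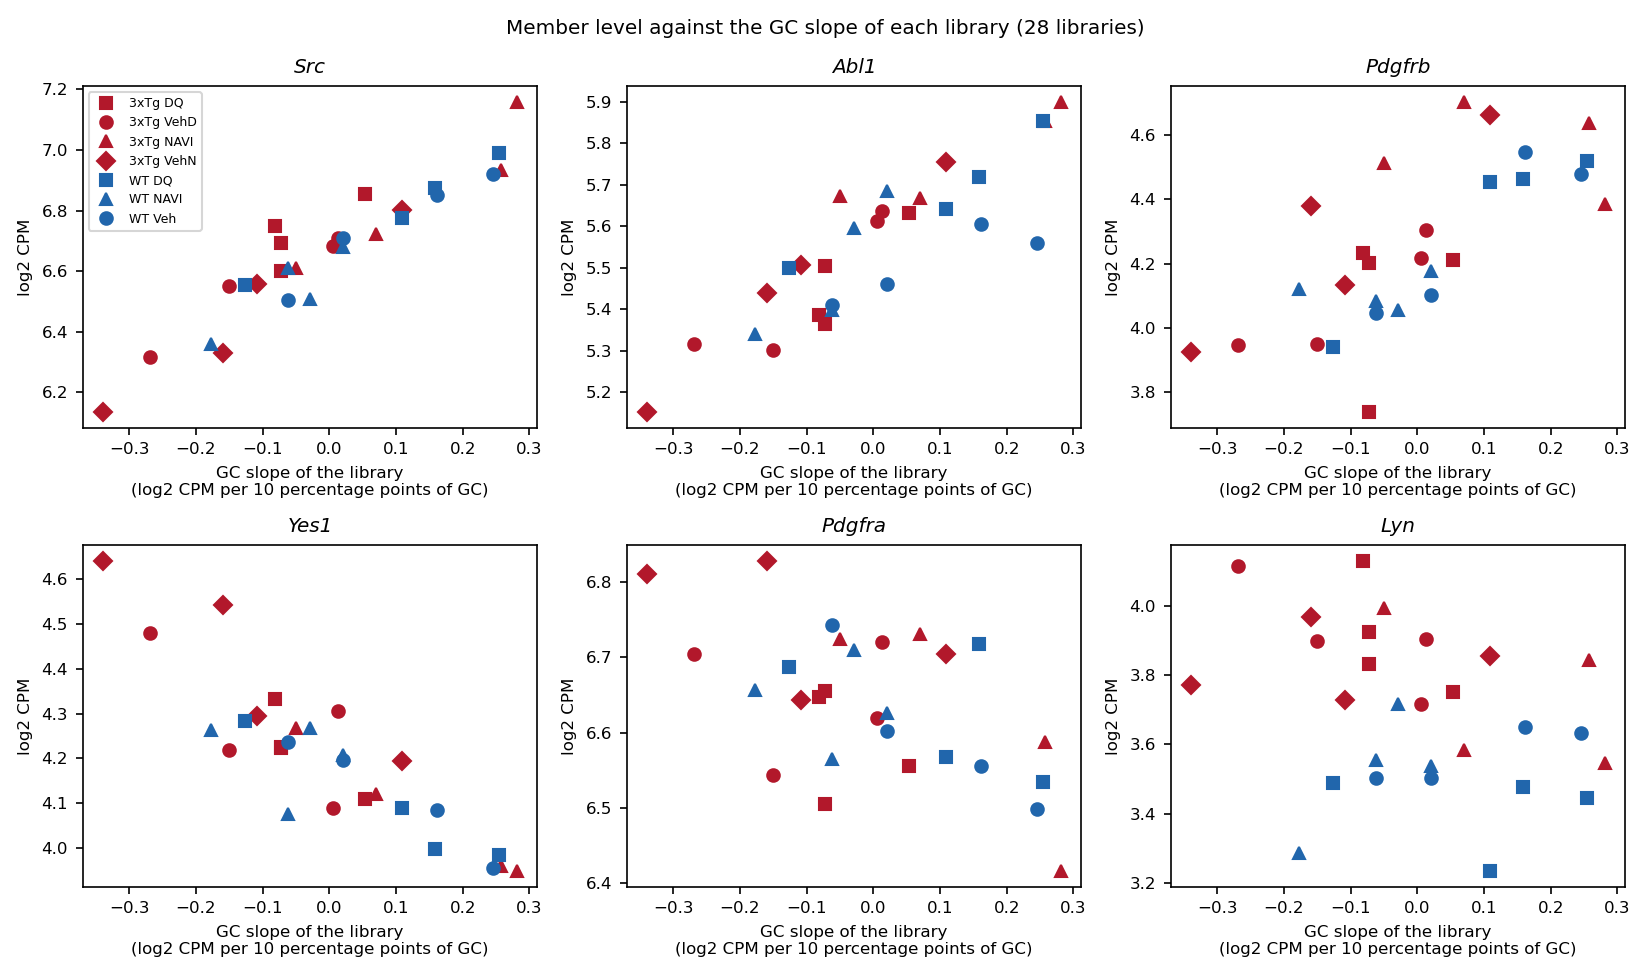
Log2 CPM of 6 members (vertical axes, each with its own range) against the GC slope of each of the 28 libraries (horizontal axis, log2 CPM per 10 percentage points of GC), with 3xTg in red and WT in blue. Src, Abl1 and Pdgfrb rise with the slope and Yes1 and Pdgfra fall with it, while Lyn lies higher in most 3xTg libraries than in WT libraries of like slope.

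These genes differ in the GC content of their transcripts, while the promoter windows found for Src, Abl1 and Yes1 are all GC-rich. The longest annotated transcript has 59.3% GC in Src, 56.2% in Abl1 and 54.9% in Pdgfrb, against 41.1% in Yes1 and a median of 48.7% over all genes with a value. It has 56.9% in Epha2, which rose with the slope, and 48.1% in Pdgfra, which fell with it though near that median. The promoter windows run from 250 bases before to 50 bases after a RefSeq start. They are 82.3% GC in Src, 67% in Abl1 and 77% in Yes1, all above the median promoter at 52.7%. They are shown because Src and Abl1 varied together over the libraries and Yes1 varied against them. Capitals mark the GC box GGGCGG, searched on both strands (CCGCCC on the other), which 35.7% of 32851 promoters of that length hold; a match is a description, not a binding site. The windows are on the plus strand of GRCm38.p6. They lie at chr2:157424043-157424342 for Src, chr2:31759689-31759988 for Abl1 and chr5:32610921-32611220 for Yes1. The Abl1 window is the first of 2 found for that gene. Both lie inside the gene, downstream of its start at chr2:31688244. The Src window likewise lies inside its gene, downstream of the start at chr2:157423906.
Src: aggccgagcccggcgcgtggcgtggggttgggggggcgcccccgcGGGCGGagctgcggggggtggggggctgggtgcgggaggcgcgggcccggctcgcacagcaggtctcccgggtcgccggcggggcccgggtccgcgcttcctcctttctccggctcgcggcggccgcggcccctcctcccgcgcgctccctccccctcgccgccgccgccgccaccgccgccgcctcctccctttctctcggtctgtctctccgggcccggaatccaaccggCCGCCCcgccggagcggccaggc
Abl1: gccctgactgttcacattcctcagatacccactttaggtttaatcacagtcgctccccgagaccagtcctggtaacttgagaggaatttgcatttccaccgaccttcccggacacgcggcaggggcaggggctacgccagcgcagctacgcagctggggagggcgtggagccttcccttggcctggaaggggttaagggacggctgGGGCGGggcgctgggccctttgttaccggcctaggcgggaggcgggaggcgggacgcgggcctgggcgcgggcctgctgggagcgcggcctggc
Yes1: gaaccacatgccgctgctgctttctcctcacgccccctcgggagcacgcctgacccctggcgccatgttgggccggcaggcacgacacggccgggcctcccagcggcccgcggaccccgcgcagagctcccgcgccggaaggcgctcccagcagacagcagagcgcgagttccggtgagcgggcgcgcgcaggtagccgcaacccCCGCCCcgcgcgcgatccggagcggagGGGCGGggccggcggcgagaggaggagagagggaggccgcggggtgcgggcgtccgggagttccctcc
Src holds 2 GC boxes, Abl1 holds 1 and Yes1 holds 2. RefSeq promoter windows were found for 8 of the 10 members; Pdgfra, at 51% GC, holds no GC box in its window.

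Positions are those of RefSeq on GRCm38.p6 (the NCBI name of mm10). Pdgfra at chr5:75151322-75198206 and Kit at chr5:75574987-75656722 are neighbours on the plus strand of chromosome 5. Yes1 lies on the same chromosome at chr5:32611171-32687066. Lyn lies at chr4:3678068-3791612, Src at chr2:157423906-157471838 and Abl1 at chr2:31688244-31807093. Of these neighbours Kit differed between genotypes by -0.32 and Pdgfra by 0.01 on the log2 scale over all treatments; the difference between them was not tested. In GENCODE the gene Gm26857 on the opposite strand covers 6.09% of Lyn exon bases, Gm10461 covers 8.46% of Yes1 and Gm42802 covers 4.55% of Pdgfra. The sources used here do not say whether counting used the strand, so reads from those overlaps cannot be told apart.

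Deviations from the group means, over the 28 libraries, show which genes varied together within groups. Among the 45 pairs of members the highest correlation was 0.86 between Src and Abl1, followed by 0.69 between Yes1 and Pdgfra, and the lowest was -0.87 between Src and Yes1; these values are descriptions, and members of like or unlike GC content share the GC slope of each library. The genes most like each member over all 16369 tested came from the same calculation. For Lyn they were Pik3cg (r = 0.84), Nckap1l (r = 0.78) and Lcp1 (r = 0.77), for Src they were Wdr18, Dlgap3 and Sh3glb2 (each r = 0.98), and for Yes1 Sirt1, Stag2 and Cnot6 (each r = 0.92). For Kit they were Tnfaip3 (r = 0.80), Fosl2 (r = 0.80) and Mpped1 (r = 0.77), for Abl2 Gria1 (r = 0.91), Dock4 and Ppp4r4 (each r = 0.88), and for Fyn Ywhah (r = 0.87), Ccdc32 (r = 0.82) and Vamp2 (r = 0.76). Actn4 (r = 0.95), Pacsin3 (r = 0.94) and Tmem189 (r = 0.94) were most like Abl1. Cldn12 (r = 0.86) and Atp1b3 (r = 0.86) were most like Pdgfra. Mical1 (r = 0.88), Eng (r = 0.87) and Athl1 (r = 0.86) were most like Pdgfrb, and Vwa1 (r = 0.81), Col4a1 (r = 0.79) and Itpr3 (r = 0.78) were most like Epha2.

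Relatives and partners of the members were compared between 3xTg and WT over all treatments by edgeR, with means ± SD over 16 libraries of 3xTg and 12 of WT. The counts stand against 14.4% of all tested genes called in that comparison, and the shares of these short lists are not read further. Of 5 other SRC family kinases tested, 1 rose and 1 fell in 3xTg. Fgr, a myeloid kinase close to Lyn, had 0.842 ± 0.397 CPM in 3xTg and 0.384 ± 0.116 CPM in WT, a log2 difference of 1.12 (SE 0.200, adjusted p = 3.10e-04). Lck, the kinase of T cells, had 1.46 ± 0.305 CPM in 3xTg and 1.91 ± 0.408 CPM in WT, a log2 difference of -0.38 (SE 0.118, adjusted p = 0.0299). Of 9 regulators 3 rose and 0 fell: Ptprc (CD45), the phosphatase of leukocytes that activates SRC kinases, at 0.58 (SE 0.116, adjusted p = 9.94e-04), Ptpn6 (SHP-1), a phosphatase of blood cells, at 0.39 (SE 0.0990, adjusted p = 0.00847) and Pag1, the membrane adaptor that recruits the inhibitory kinase Csk, at 0.22 (SE 0.0384, adjusted p = 1.89e-04). Ptprc had 11.3 ± 2.40 CPM in 3xTg and 7.53 ± 1.79 CPM in WT. Fgr, Ptprc and Ptpn6 are genes of leukocytes and rose beside the microglia markers given above, whose part in these values was not tested.

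Of 11 substrates and partners of SRC kinases 1 rose and 0 fell, Grin2b, an NMDA receptor subunit that Fyn phosphorylates, at 0.24 (SE 0.0800, adjusted p = 0.0441). Its difference was 0.26 (SE 0.144, adjusted p = 0.351) with DQ, 0.61 (SE 0.145, adjusted p = 0.0127) with NAVI and -0.16 (SE 0.124, adjusted p = 0.395) with vehicle. The NAVI effect on Grin2b in 3xTg minus that in WT was 0.85 (SE 0.205, adjusted p = 0.0427). That call was lost with no low count filter, with only the libraries of the comparison and after removal of the GC trend. Each of these fits called 0 genes in that comparison. With vehicle this list had 0 called higher and 1 lower, Dlg4, the postsynaptic scaffold protein PSD-95, at -0.36 (SE 0.0836, adjusted p = 0.00775). Of 10 ABL partners 0 rose and 1 fell, Rin1, an activator of ABL kinases, at -0.13 (SE 0.0461, adjusted p = 0.0499). Of 10 ligands of the receptor members 0 rose and 0 fell; the Kit ligand Kitl had 46.6 ± 10.99 CPM in 3xTg and 40.5 ± 6.04 CPM in WT, a log2 difference of 0.11 (SE 0.0926, adjusted p = 0.502), and Pdgfd, which binds Pdgfrb, had -0.37 (SE 0.145, adjusted p = 0.0943). Of 13 other ephrin receptors Epha6 rose, at 0.19 (SE 0.0623, adjusted p = 0.0450), and Epha10 fell, at -0.25 (SE 0.0514, adjusted p = 0.00152). With vehicle 0 of the 13 rose and 4 fell, Epha10 at -0.45 (SE 0.0794, adjusted p = 7.92e-04), Ephb2 at -0.37 (SE 0.110, adjusted p = 0.0282), Ephb3 at -0.54 (SE 0.143, adjusted p = 0.0166) and Ephb6 at -0.39 (SE 0.128, adjusted p = 0.0465), while 0 were called with DQ or with NAVI. For Epha10 the effect in 3xTg minus that in WT was 0.23 (SE 0.132, adjusted p = 0.9999) for DQ and 0.39 (SE 0.132, adjusted p = 0.0600) for NAVI, neither called. The mean GC slope was -0.100 in 3xTg VehD and -0.124 in 3xTg VehN, against 0.0914 in WT Veh, and its part in these vehicle values was not tested. Dlg4 and the Ephb genes were named after their values were seen. Of 15 other kinases that dasatinib binds 3 rose and 1 fell: Csf1r at 0.29 (SE 0.0594, adjusted p = 0.00148), Btk, a kinase of B cells and myeloid cells, at 0.38 (SE 0.0935, adjusted p = 0.00675), Sik2 at 0.19 (SE 0.0398, adjusted p = 0.00165) and Limk2, which acts on cofilin, at -0.11 (SE 0.0354, adjusted p = 0.0320). The median log2 differences of the 7 lists lay between -0.04 and 0.05. With DQ in 3xTg 0 genes of any of the 7 lists were called.

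No member was called between the 2 vehicle groups of 3xTg. VehD against VehN gave log2 differences from -0.19 for Pdgfrb to 0.14 for Kit, with 0 of 10 members and 0% of all genes called by edgeR. Before adjustment 807 genes and 0 members were under 0.05; by DESeq2 the calls numbered 2. The 95% interval was -0.14 to 0.31 for Lyn and -0.21 to 0.50 for Kit.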

How the data were processed

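Hippocampal RNA of 28 libraries was sequenced from stranded mRNA libraries with paired reads of 100 bases, per the labels' protocols. Tools named in the submitters' processing notes are STAR, Subread and featureCounts, with build mm10 and no versions; for strand setting and annotation the sources used here give nothing. The authors deposited raw counts per gene symbol, not normalized or pooled; columns were assigned to libraries by their names. The count table was tested with edgeR 4.0.16 (R 4.3.3; quasi-likelihood, TMM, filterByExpr by group, 1 coefficient per group, all 28 libraries), with two-sided p-values adjusted by Benjamini-Hochberg within each of 11 comparisons. Standard errors are the log2 fold change over the root of F. Log2 CPM used a prior count of 2. The vehicle comparison set the mean of VehD and VehN against WT Veh. No libraries agreed within sampling noise (lowest chi-square per degree of freedom 12.3). The script was tested on simulated data.
Alternatives were RLE normalization, DESeq2 1.42.0, no filter, the replicate block, marker covariates, other vehicle sets, fewer libraries and removal of the GC trend (a lowess fit per library, span 0.3). The members and lists were chosen with earlier results of these data known. Besides the members, genes named are up to 4 per partner list with the smallest p over all treatments, up to 2 with the smallest p for DQ in 3xTg, the 3 genes most like each member, and markers; a few genes under these rules are not reported here. Promoters and gene positions come from RefSeq, and strands, exons, overlaps and GC content from GENCODE, for GRCm38.p6. Figures used matplotlib 3.10.9.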

Additional observations from a re-analysis of the deposited data

Results flagged for a closer look

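Within the 70 sets of 4 libraries (10 members by 7 groups), 3 had a library that stood apart from the other 3 by Dixon's test at the 95% level, which chance would give in about 1 of 20 sets. Kit was at 95.2 CPM in 3xTg DQ replicate 2, against 106 to 109 CPM in the other 3 libraries of that group. Pdgfrb was at 13.3 CPM in the same library, against 18.3 to 18.8 CPM in the others. Pdgfrb was also at 15.3 CPM in WT DQ replicate 2, against 21.9 to 22.9 CPM in the others.
The difference of the NAVI effect between 3xTg and WT was called for Src, at 0.61 (SE 0.185, edgeR adjusted p = 0.0466). It was 0.10 (adjusted p = 0.451) after removal of the GC trend.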

How the results depend on the processing

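Of 2180 member values under alternatives, 2112 kept their direction and side of the threshold or stayed uncalled, 35 lost a call, 33 gained 1 and none reversed a called direction; 178 uncalled values changed sign. RLE normalization moved no count of calls by more than 1.5 times. Where counts moved, members called are given first and all genes called second.
DESeq2 called 1 member and 1641 genes for genotype with NAVI, 3 and 2000 for NAVI in 3xTg and 2 and 3004 for the difference of NAVI effects; it called 4 genes for DQ in WT, 3 for NAVI in WT, 1 for the difference of DQ effects and 2 between vehicles. Without a low count filter the difference of NAVI effects had 0 members and 0 genes. Only the libraries of the comparison gave 0 and 1118 for genotype with vehicle, 1 and 535 with NAVI, 0 genes for DQ in WT, and 0 and 0 for the difference of NAVI effects. VehN alone gave 0 members for genotype with vehicle and VehD alone 0 and 623; the mean of both vehicles gave 1 and 1541 for NAVI in 3xTg. Choroid plexus and thalamus covariates gave 1 gene for the difference of DQ effects and 3 and 3241 for that of NAVI effects.
Among alternatives chosen after seeing the data, removal of the GC trend gave 0 members for genotype with vehicle, 2 genes for DQ in WT, and 0 and 0 for the difference of NAVI effects. The microglia covariate gave 2 and 3855 for genotype with vehicle, 0 and 759 with DQ, 67 genes with NAVI, and 0 and 1453 over all treatments. The interneuron covariate gave 0 and 1094 with vehicle, 95 genes with NAVI, and 1 and 932 over all treatments. The cause of these moves was not tested.
The replicate block gave 2 and 3283 for genotype with vehicle, 2 and 1884 with NAVI, 3 and 2317 for NAVI in 3xTg and 2 and 3315 for the difference of NAVI effects. The numbers were not taken as pairing the libraries: same-numbered libraries correlated at -0.40 to 0.46, over 0.1 in 32 of 84 pairs, and 10 of 28 libraries correlated best with their own number.
Leaving out 1 library at a time gave 0 to 4 members and 873 to 3482 genes for genotype with vehicle, 0 to 1 and 263 to 632 with DQ, 0 to 0 and 375 to 1920 with NAVI, and 1 to 2 and 1978 to 2487 over all treatments. It gave 0 to 4 and 0 to 3578 for NAVI in 3xTg, 0 to 4 and 0 to 4214 for the difference of NAVI effects, 1 to 5 genes for DQ in WT, 0 to 1 for NAVI in WT and 0 to 1 between vehicles. Depth limits Epha2 most, at 22 to 86 counts per library.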
